A study of Mus musculus with 2 samples.

Results

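The subject is a set of 2065 bins of 1 kb in which the input library of a Tbx3 ChIP-seq experiment in mouse embryonic stem cells was dense without being a pile-up of repeated tags. The bins were chosen by their input tags alone: each had 20 or more distinct input tags (1 per position and strand) and fewer than 5 repeats of a position and strand already seen. They are 2065 of 2418586 bins on chromosomes 1 to 19 and X that held a tag in either library, and the ChIP tags played no part in the choice. The 2 libraries were DNA precipitated with an antibody against Tbx3 and input DNA without precipitation. Both came from untreated, sonicated nuclei of mouse embryonic stem cells, for which the labels name the D3 and R1 lines without saying which line gave which library. The medium held leukaemia inhibitory factor, and the cells shared the dish with inactivated mouse embryonic fibroblasts as feeders. Each group was 1 library, so no value has a replicate error, no p-value is given, and intervals cover counting error only.

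Tbx3 is a T-box transcription factor known for its part in the self-renewal of mouse embryonic stem cells. Input is sequenced to show how many tags a stretch of genome gives without the antibody. Open chromatin, as at active promoters, is known to shear more readily than compact chromatin. Such places give short local rises of tags in input and, since the precipitated material is sheared in the same way, in ChIP as well. The question put to the bins was therefore whether ChIP rose with input in them, and over what distance. The files hold no measure of chromatin accessibility, and genes and sequence at these positions were not analysed here.

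On the 20 chromosomes the ChIP library held 6881110 tags, all at distinct positions and strands, and the input held 9982870 distinct tags. The average bin with a tag thus had 2.85 ChIP and 4.13 input tags. Input was scaled by 0.689, the ratio of these totals, so that a ratio of ChIP to scaled input of 1 is the genome average. In the set, the bins had a median of 27 input tags (interquartile range 22 to 38, highest 157), 7.78 times the mean of their chromosomes. Repeats were absent from 1115 of them. The 236 bins with 20 input tags, just inside the threshold, had a pooled ratio of 0.273 and ChIP at 1.31 times the chromosome mean, and 36.9% had no ChIP tag. The 234 bins with 19 tags, just outside, had 0.239, 1.12 and 41.0%. The 67 bins with 4 repeats had a pooled ratio of 0.320, ChIP at 4.38 times the mean and 14.9% without a ChIP tag. The 41 with 5 repeats had 0.359, 6.93 and 29.3%.

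ChIP did not follow input into most of these bins. They held 68902 input and 11245 ChIP tags, a pooled ratio of 0.237 (95% interval from an exact binomial interval, 0.232 to 0.242). The median bin had 1 ChIP tag (interquartile range 0 to 6, highest 123) and a ratio of 0.0631. The ratio was above 1 in 115 bins, or 5.57% (95% exact Clopper-Pearson interval 4.62% to 6.65%), against 47.5% of all bins with a tag, and it was not above 1 in the other 1950. Taken bin by bin, the exact interval of the ratio lay wholly below 1 in 1672 bins (81.0%, against 0.886% of all bins). It lay wholly above 1 in 9 bins (0.436%, against 1.28%). Bins with few tags have wide intervals that rarely exclude 1. The median bin with a tag had 4 input tags, against 27 in the set, so these shares also reflect the number of tags.

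These ratios are descriptions, since choosing bins for many input tags lowers the ratio by itself. Bins of 10 to 19 input tags with fewer than 5 repeats, of which there were 62416, had a pooled ratio of 0.448 and were above 1 in 6.11%, close to the share in the denser set. Measures that the choice did not use were the ChIP count itself and the tags of the opposite strand.

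By ChIP count alone, bins at both ends were more frequent in the set than in the genome. No ChIP tag lay in 810 of the 2065 bins (39.2%, 37.1% to 41.4%), against 10.5% of all bins and 8.19% (7.97% to 8.41%) of the bins of 10 to 19 input tags. At the other end, ChIP reached at least 2 times the chromosome's mean in 528 bins (25.6%, 23.7% to 27.5%), against 9.70% of all bins. That share was 14.1% in the bins of 10 to 19 input tags. It was 60.4% in the 364 bins of 20 or more input tags with 5 or more repeats, so a raised share was not particular to the set. Summed over the set, ChIP was 1.90 times the chromosome mean (1.86 to 1.93), although 1252 bins (60.6%) were below that mean, against 50.2% of all bins. The summed level thus comes from a minority of bins. Without a dense run at the start of chromosome 11, described below and singled out after its values were seen, the pooled ratio fell from 0.237 to 0.195 and the share of bins at 2 times the mean was 24.4%, while 39.9% had no ChIP tag.

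**Figure D1:**
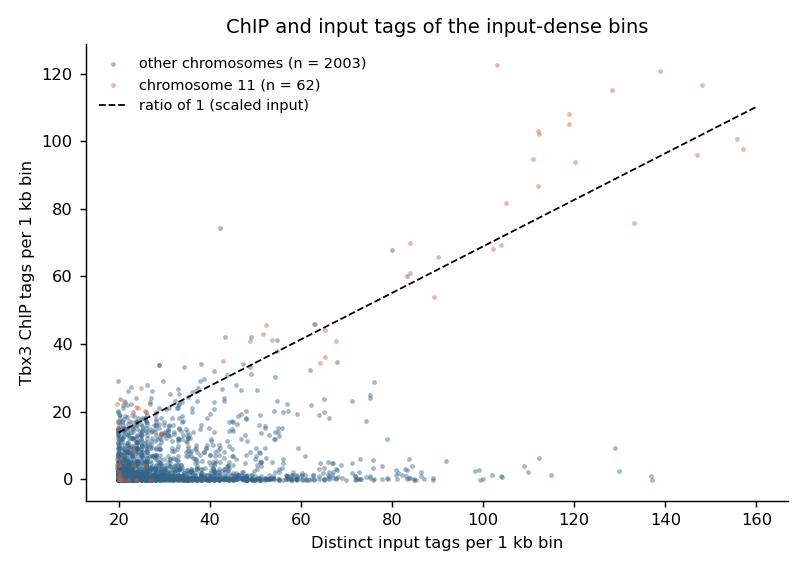
Tbx3 ChIP tags (vertical axis, tags per 1 kb bin) against distinct input tags (horizontal axis, tags per 1 kb bin) for the 2065 input-dense bins, 1 point each with a small random offset; orange points are the 62 bins of chromosome 11 and the dashed line is a ratio of 1. Up to 99 input tags most points lie near the bottom, with a median of 1 ChIP tag in each of the groups of 20 to 29, 30 to 49 and 50 to 99 input tags. The 30 bins of 100 or more have a median of 79, and the densest chromosome 11 bins lie around the line.

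Choosing bins on one strand and reading the other gave a reading that the choice of dense strands did not set. Among bins with fewer than 5 repeats, those with 1 or 2 plus-strand input tags had 1.94 minus-strand input and 1.38 minus-strand ChIP tags on average, a ratio of 1.03 after scaling. In the 2148 bins with 10 to 14 plus-strand input tags, minus-strand input rose to 7.42 (7.30 to 7.53) and minus-strand ChIP was 1.72 (1.67 to 1.78), a ratio of 0.337 (0.325 to 0.349). With 15 to 24 plus-strand tags, in 661 bins, input was 17.2 and ChIP 2.45, a ratio of 0.207 (0.197 to 0.218). In the 277 bins with 25 or more, input was 31.8 and ChIP 6.68, a ratio of 0.305 (0.290 to 0.321). The share of bins without a minus-strand ChIP tag was 34.3% with no plus-strand input tag, 29.3% with 1 or 2, 23.9% with 3 or 4, 22.1% with 5 to 7, 25.6% with 8 or 9, 39.9% with 10 to 14, 50.5% with 15 to 24 and 48.7% with 25 or more. It thus fell first and was higher again in the dense groups. The density seen on one strand was thus present on the other strand of the input, and ChIP rose far less. The share of bins with a ratio above 1 was 14.5% when all 3086 bins with 10 or more plus-strand tags were read this way. The same share over all bins is not given here for the minus strand. The 47.5% above counts both strands and is not its counterpart.

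**Figure D2:**
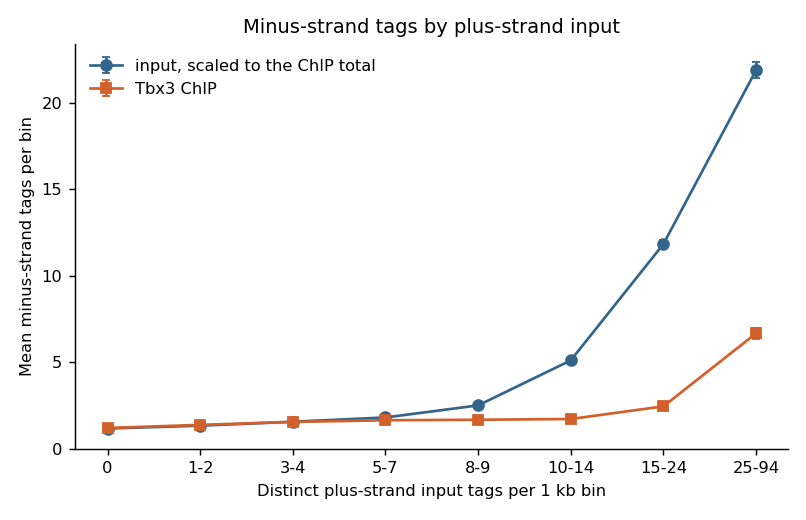
Mean minus-strand tags per 1 kb bin (vertical axis) of the input, scaled to the ChIP total (circles), and of the Tbx3 ChIP (squares), in bins grouped by their distinct plus-strand input tags (horizontal axis), with 95% exact Poisson intervals. The curves run together up to 3 or 4 plus-strand tags and part above that, with ChIP at 1.72 tags in the group of 10 to 14.

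The bins were gathered in a few stretches of the genome. Of the 2065, 1481 (71.7%) touched another bin of the set and 1844 (89.3%, 87.9% to 90.6%) had another starting within 10 kb, leaving 221 that lay alone. Joining bins within 10 kb of each other gave 179 runs of 2 or more. The 46 runs of 10 or more bins, on 11 chromosomes, held 1351 bins (65.4%). The 10 fullest intervals of 1 Mb held 1148 bins (55.6%). Because bins of a run share their surroundings, they are not independent, and the binomial intervals above are too narrow.

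The 3 longest runs lay on chromosomes 4 and 17 (coordinates as in the files, build mm8). On chromosome 4 from 144845000 to 145145999, 226 bins in 301 kb held 9187 input and 197 ChIP tags, a ratio of 0.0311 (0.0269 to 0.0358), and 66.8% of the 226 had no ChIP tag. Just before it, from 144670000 to 144834999, 124 bins held 4758 input and 825 ChIP tags, a ratio of 0.252 (0.233 to 0.271), and 10 had no ChIP tag. Both runs had a median of 37 input tags per bin, and the intervals of their ratios did not overlap. On chromosome 17 from 6292000 to 6409999, 104 bins held 3717 input and 845 ChIP tags, a ratio of 0.330 (0.306 to 0.355).

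Runs differed widely in ratio. Among the 46, the pooled ratio ran from 0.00491 to 1.19 with a median of 0.117. It was under 0.1 in 22 runs (676 bins), from 0.1 to 0.5 in 15, from 0.5 to 1 in 6 and above 1 in 3. The lowest was on chromosome 14 from 3413000 to 3430999, where 13 bins held 591 input and 2 ChIP tags. A larger run of the same chromosome, from 3272000 to 3318999, held 1676 input and 9 ChIP tags in 41 bins, of which 36 had no ChIP tag. The 3 runs above 1 were on chromosome 11 from 3012000 to 3099999 (1.11, 1.05 to 1.17), on chromosome 11 from 116561000 to 116574999 (1.19, 0.974 to 1.44) and on chromosome 12 from 116045000 to 116069999 (1.11, 0.914 to 1.34). The intervals of the last 2 include 1. With each run or lone bin given 1 value, the median ratio over 400 values was 0.109 (interquartile range 0.00767 to 0.334), and 15 (3.75%) were above 1.

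**Figure D3:**
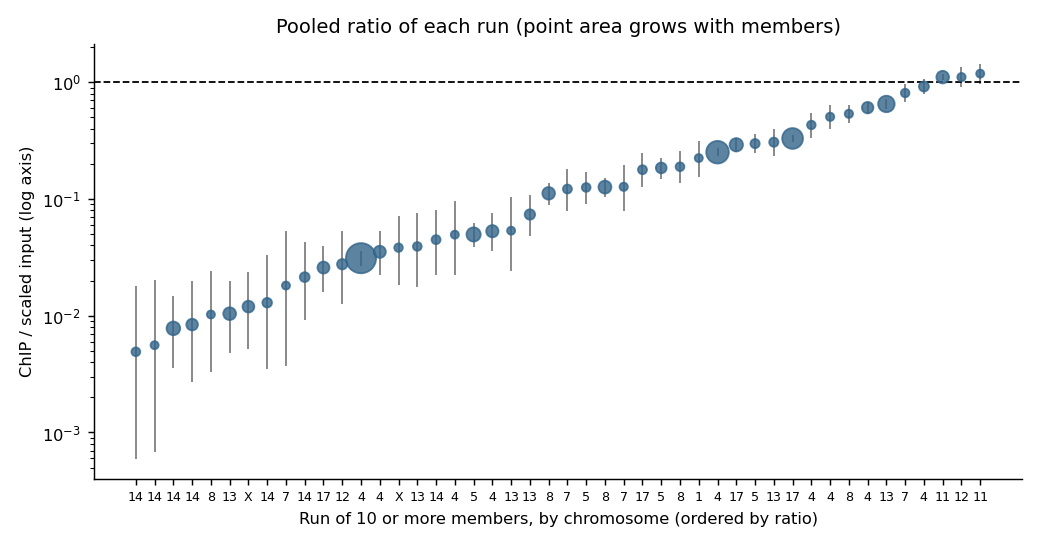
Pooled ratio of ChIP to scaled input (vertical axis, log scale) with 95% exact intervals for the 46 runs of 10 or more input-dense bins, ordered by ratio and named by chromosome on the horizontal axis; point area grows with the number of bins and the dashed line is a ratio of 1. The runs spread from 0.00491 to 1.19, and 3 of them lie above the line.

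The run at the start of chromosome 11 had the highest median of each library among the 46 runs of 10 or more bins. Other runs were also raised in both libraries. That of chromosome 12 from 116045000 had medians of 22 input and 21 ChIP tags, against chromosome means of 4.15 and 2.78. The 34 bins at the start of chromosome 11 had a median of 102.5 input and 69.5 ChIP tags. None was without ChIP tags, and 22 were above a ratio of 1. This run held 6 of the 10 bins with the most input tags. The bin from 3079000 to 3079999 had 157 input tags (72 plus, 85 minus) and 98 ChIP tags (44 plus, 54 minus), a ratio of 0.906 (0.696 to 1.17). The bin from 3077000 to 3077999 had 156 input and 101 ChIP tags, and the bin from 3096000 to 3096999 had 148 and 117. The remaining 3 started at 3057000 (147 input, 96 ChIP), 3037000 (139 and 121) and 3047000 (133 and 76). All 6 bins had ratios between 0.829 and 1.26, with intervals that include 1.

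The other 4 of the 10 densest bins were on chromosome 8 and had 0 to 9 ChIP tags, far below their scaled input. The bin from 19720000 to 19720999 had 137 input tags (72 plus, 65 minus), which scale to 94.4, and 0 ChIP tags, a ratio of 0 with an upper limit of 0.0396. The bin from 19737000 to 19737999 also had 137 input tags and 1 ChIP tag. The bins starting at 19710000 and 19711000 had 130 and 129 input tags and 2 and 9 ChIP tags. The 9 tags were above the chromosome's ChIP mean of 3.54 per bin, at a ratio of 0.101. Bins of like input density on chromosomes 8 and 11 therefore differed in ChIP from a near absence to the scaled input level.

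The highest ratio was on chromosome 18 from 3009000 to 3009999, with 74 ChIP against 42 input tags, a ratio of 2.56 (1.73 to 3.83). Next were a bin of chromosome 4 starting at 146366000 (29 ChIP and 20 input tags, 2.10, 1.15 to 3.92), one of chromosome 12 starting at 116063000 (24 and 20, 1.74, 0.922 to 3.32), one of chromosome 11 starting at 3095000 (123 and 103, 1.73, 1.32 to 2.27) and one of chromosome 5 starting at 80491000 (26 and 22, 1.71, 0.934 to 3.17). The intervals of these 5 overlap, so their order is not resolved. They were picked as the largest of 2065 ratios and are given as a description. The lowest ratio was a tie of the 810 bins at 0. The first 5 in genome order, on chromosome 1 starting at 84841000 and 84846000 and on chromosome 2 starting at 83755000, 83756000 and 83758000, had 24, 21, 38, 27 and 31 input tags.

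Bins without ChIP tags were themselves side by side. Of the set, 460 bins (22.3%, 20.5% to 24.1%) lay in stretches of at least 5 consecutive bins with input tags and no ChIP tag, against 0.635% of all bins with a tag and 2.34% of the bins of 10 to 19 input tags. There were 1818 such stretches in the genome, and 132 (7.26%) held a bin of the set. The longest that did was on chromosome 12 from 56009000 to 56085999, 77 bins with 1038 input tags (715 after scaling) and no ChIP tag. On chromosome 4 from 145045000 to 145089999, 45 consecutive bins held 1845 input tags (1272 after scaling) and no ChIP tag, and 43 of the 45 were in the set.

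Around the bins input stayed high, while the ChIP level depended on which neighbours were counted. In bins 2 to 10 kb away that were not themselves in the set, input was 2.55 times the chromosome mean (2.53 to 2.56) and ChIP 0.998 times (0.984 to 1.01). Near runs of 10 or more, input was 3.87 times the mean and ChIP 1.61 times (1.57 to 1.65), and in bins inside runs that missed the rule they were 4.52 and 1.92 (1.88 to 1.97). These neighbours still held bins of 20 or more input tags with 5 or more repeats. Leaving those out, an alternative chosen after seeing the data, gave 1.86 (1.85 to 1.88) for input and 0.768 (0.756 to 0.780) for ChIP over all flanks. It gave 2.34 and 0.770 (0.743 to 0.797) near runs of 10 or more, and 2.69 and 0.850 (0.820 to 0.880) inside runs. Without the chromosome 11 run, the flanks with all their bins had ChIP at 0.818 (0.806 to 0.831). At 20 to 40 kb, again without such bins, input was 1.45 and ChIP 0.783 times the mean. The share of these farther bins without a ChIP tag was 30.5%, against 10.5% of all bins.

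The 221 lone bins had fewer input tags than the whole set, and a smaller share of them had no ChIP tag. They had a median of 22 input and 2 ChIP tags, a pooled ratio of 0.261 (0.244 to 0.280), 60 bins (27.1%, 21.4% to 33.5%) without ChIP tags and 7 (3.17%) above a ratio of 1. Bins 2 to 10 kb from them, without repeated-tag bins, had input at 1.49 and ChIP at 0.837 times the mean. The lone bins themselves had input at 5.53 and ChIP at 1.47 times the mean (1.38 to 1.57), although 55.7% had ChIP below it. At 1 kb on either side, again without repeated-tag bins, input was 1.995 and 1.94 and ChIP 0.789 and 0.858 times the mean. The choice of bins sets the input peak, and it did not use ChIP. Around lone bins, too, input was above the mean well beyond the bin itself, while ChIP was below the mean from 1 to 20 kb. At 20 kb on either side input was still 1.30 and 1.24 times the mean. Lone bins lack another of the set within 10 kb, and some lay within 20 kb of a run. One was the bin of chromosome 13 starting at 12892000, near the run ending at 12878999. These levels therefore do not describe places far from runs.

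**Figure D4:**
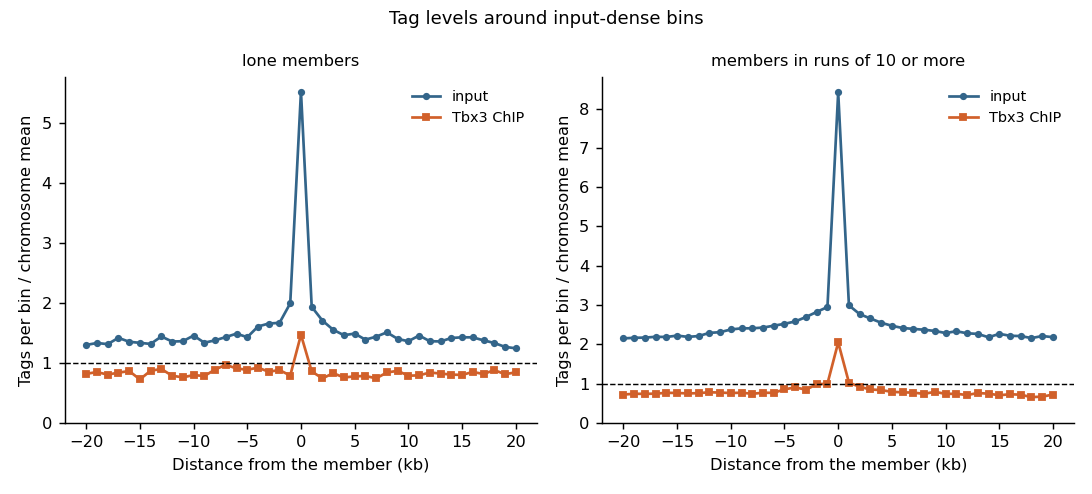
Input (circles) and Tbx3 ChIP (squares) tags per 1 kb bin over the chromosome mean (vertical axes) by distance from a member in kb (horizontal axis), for the 221 lone bins (left) and the 1351 bins in runs of 10 or more (right); neighbours leave out other members and bins of 20 or more input tags with 5 or more repeats, which sharpens the central peak. At the member itself, input and ChIP are at 5.53 and 1.47 times the mean in lone bins and at 8.41 and 2.05 in runs. At 20 kb on either side input is at 1.30 and 1.24 times the mean around lone bins and 2.15 and 2.18 around runs, while ChIP is between 0.718 and 0.843.

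Within a bin, tags were spread over its length. The median bin of the set had input tags in 9 of its 10 pieces of 100 bp, with 22.7% of the tags in the densest piece. The dispersion of the counts over the pieces (variance over mean, 1 for an even random spread) had a median of 1.56. It was 6.47 in the 364 bins of 20 or more input tags with 5 or more repeats, the most similar set, and 0.899 in bins of 10 to 19 tags. Where tags are spread unevenly, this measure grows with the number of tags, which was higher in the bins with repeats. The part of tag number in the difference was not tested. Their median bin also had tags in 9 of 10 pieces and a densest piece close to that of the set, with 25.6% of the tags.

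The strands were balanced, with 49.8% of input tags (49.5% to 50.2%) and 49.8% of ChIP tags (48.9% to 50.7%) on the plus strand. Pairs of a plus and a minus tag whose ends lay 23 to 43 bp apart, a window that holds the 35 bp length of a tag, were 1.62 times as frequent with the minus tag downstream as upstream in the input. The same factor was 2.60 in lone bins, 2.21 in bins with repeats and 1.21 in bins of 10 to 19 tags. At 115 to 135 bp, around the fragment length that earlier work on these files gave for the ChIP library, the factor in the set was 1.05 for input and 1.14 for ChIP, against 1.36 for ChIP in bins of 10 to 19 tags. The excess of facing pairs in the set was thus larger at the length of a tag than at that of a fragment. For input this was not particular to the set, since the factor at 115 to 135 bp was 1.06 in bins with repeats and 1.07 in bins of 10 to 19 tags. ChIP in bins of 10 to 19 tags went the other way, with 1.27 at the length of a tag and 1.36 at that of a fragment.

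The bins with repeats differed from the set in ChIP as well. Their median was 104.5 input and 13.5 ChIP tags, their pooled ratio 0.511 (0.502 to 0.520), and 13.7% (10.4% to 17.7%) had no ChIP tag. Within the set, the pooled ratio was 0.213 in bins with 0 repeats, 0.227 with 1, 0.246 with 2, 0.327 with 3 and 0.320 with 4. More repeats went with more input tags, at medians of 24, 28, 36, 46 and 55, and the part of either in the ratio was not tested.

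All 20 chromosomes had bins of the set, in very unequal numbers. The genome-wide density was 0.854 per covered Mb. On chromosome 4 there were 599 bins, a density of 4.14 (3.81 to 4.48 by an exact 95% Poisson interval). Chromosome 17 followed with 231 (2.65, 2.32 to 3.02), then chromosome 13 with 225 (10.9% of the set) and chromosome 14 with 209 (1.87, 1.62 to 2.14). These 4 chromosomes held 61.2% of the set. The lowest densities were on chromosome 15, with 7 bins (0.0726), and chromosome 18, with 8 (0.0940). X carried 66 bins (0.488), at 0.494 of the autosomes' input density, so that a fixed threshold of 20 tags is harder to reach there. With the threshold lowered in proportion, to 9.87 tags, an alternative chosen after seeing the data, 333 bins of X would enter (2.46 per Mb). Without chromosome 4 the genome-wide density was 0.645 and the pooled ratio 0.257.

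**Figure D5:**
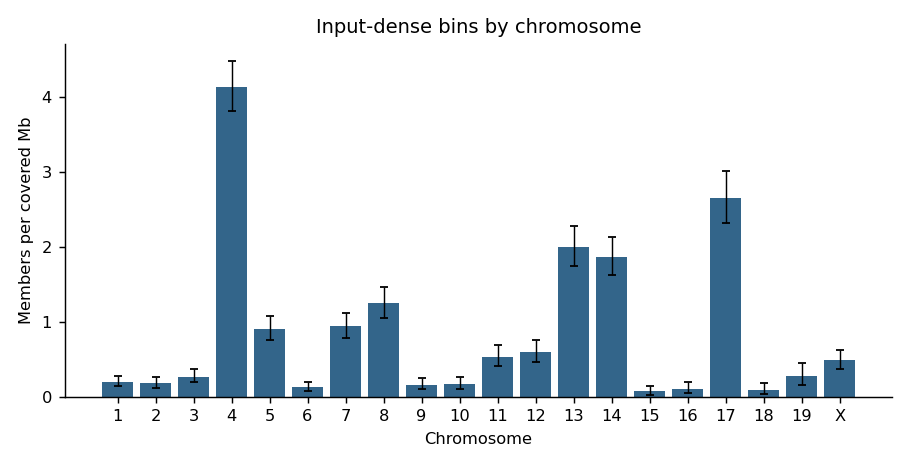
Input-dense bins per covered Mb (vertical axis) on each of the 20 chromosomes (horizontal axis), with 95% exact Poisson intervals that treat bins as independent. Chromosome 4 is highest at 4.14, followed by chromosomes 17, 13 and 14.

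Each of the high counts came from a few places. On chromosome 14, 159 of 209 bins (76.1%) lay in the first Mb with tags, from 3 to 4 Mb. They held 5452 input and 58 ChIP tags, a ratio of 0.0154, and 81.8% had no ChIP tag. On chromosome 17, 145 of 231 lay from 6 to 7 Mb (ratio 0.317). On chromosome 4, 229 lay from 144 to 145 Mb (0.159) and 208 from 145 to 146 Mb (0.0996), while the 62 from 146 to 147 Mb had a ratio of 0.703. On chromosome 13, 80 lay from 65 to 66 Mb (0.0314) and 76 from 12 to 13 Mb (0.601). On X, 55 of 66 lay from 3 to 4 Mb (0.0293).

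Over each whole chromosome, the pooled ratio was lowest on chromosome 14 at 0.0179 (0.0143 to 0.0223) and next on X at 0.0637 (0.0509 to 0.0789). It was highest on chromosome 11 at 1.02 (0.971 to 1.07), whose interval overlaps that of chromosome 18 at 0.896 (0.737 to 1.09). The chromosome 11 value rests on the run of 34 bins at its start, since the other 28 bins gave 0.638 (0.557 to 0.730). Of these 28, 10 formed the run from 116561000, which held 192 of their 311 ChIP tags at a ratio of 1.19. The first Mb with tags of each chromosome, which in the mouse assembly lies next to the centromere, held 331 bins on 12 chromosomes (16.0% of the set, 14.5% to 17.7%), against 0.756% of all bins. Leaving out chromosomes 11, 14 and X, it still held 4.80% of the bins. The last Mb held 26 bins (1.26%, against 0.779%).

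The deposited ChIP list is titled as unique hits and the input list is not. How either list treated tags that match several places is not given in the sources used here, and its part in these values was not tested.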

How the data were processed

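Both deposited lists hold 1 line per mapped tag, with positions in build mm8 per the submitters' processing notes. Aligner, settings and filters: not given in the sources used here. The deposited ChIP list gives a position and strand and holds no repeats; the deposited input list gives both ends of 35 bp tags with repeats kept. An input tag was placed at its lower end if on the plus strand and at its upper end if on the minus, the frame in which positions shared with ChIP were most frequent on the chromosome checked. Whether positions count from 0 or 1 was not settled.

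Distinct tags were counted in 1 kb bins by 5′ end with Python 3 tools (numpy, pandas, scipy), and the counter was tested on simulated tags. The members and all lists were chosen with earlier results of these data known. Named bins are the 10 with most input tags, the 5 highest and 5 lowest ratios (ties in genome order) and the 3 longest runs; others were named after their values were seen. There is 1 library per group, so no test was made. Intervals are 95% exact, cover counting error only and are not corrected for amplification, since no molecular identifiers are described. Alternatives are given in the closing section.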

Additional observations from a re-analysis of the deposited data

How the results depend on the processing

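The ratio of 0.237 stayed below 1 under all 13 alternatives, from 0.109, a median over runs and lone bins, to 0.349. All but the strand split chose bins by the same input tags that divide the ratio, which lowers it by itself. Lone bins only, leaving out the chromosome 11 run, 1 value per run and flanks without repeated-tag bins were chosen after seeing the data. With 15 or more input tags there were 4889 bins, with a ratio of 0.255, 4.25% above 1, 20.1% at 2 times the ChIP mean, 31.7% without ChIP tags, 68.7% with another within 10 kb, and flanks at 1.53 for input and 1.02 for ChIP. With 30 or more there were 854, with a ratio of 0.231, 27.9% at 2 times the mean, 92.7% within 10 kb, and flanks at 4.75 and 1.61. With no repeat there were 1115, with 0.213, 23.4%, 84.5%, and flanks at 3.25 and 1.02. With no limit on repeats the ratio was 0.349, with 7.04% above 1, 30.8% at 2 times the mean, 35.4% without ChIP tags, and flanks at 1.72 and 0.811. Bins starting 0.5 kb later gave a ratio of 0.243 and flanks at 2.57 and 0.979, tags moved by 60 bp gave flank input of 2.56, and scaling per chromosome gave a ratio of 0.243. Bins chosen on the plus and read on the minus strand had a ratio of 0.288, with 14.5% above 1 and 42.9% without minus-strand ChIP tags. Of them, 66.4% had another within 10 kb, and minus-strand flanks were at 1.77 and 1.03. The other shares above 1 or without ChIP tags given here count both strands and are not counterparts of these. Without chromosome 4 the ratio was 0.257, with 85.9% within 10 kb and flank input of 2.60. The 221 lone bins had a ratio of 0.261, with 3.17% above 1, 27.1% without ChIP tags, and flanks at 1.54 and 0.855. Without the chromosome 11 run the ratio was 0.195, with 4.58% above 1, and flanks at 2.38 and 0.818. With 1 value per run the median ratio was 0.109 and 3.75% were above 1. Flanks without repeated-tag bins were at 1.86 and 0.768. On X, the 66 bins became 333 with the threshold scaled to its input density, also chosen after seeing the data. Each threshold also changes which flanking bins count, since flanks leave out the bins chosen. Remaining values moved by less than the counting interval or, for numbers of bins, by less than 1.5 times, and causes were not tested. No paired analysis was possible because each group is 1 library. Counting error limits single bins, as the interval of 1.15 to 3.92 for the bin of 20 input tags on chromosome 4 starting at 146366000 shows.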
